A study of Mus musculus with 4 samples.

Results

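Steroid hormones are made from cholesterol by a short chain of enzymes, and 10 genes of that chain were followed here: Hsd3b1, Hsd3b6, Star, Cyp11a1, Cyp17a1, Cyp11b1, Cyp21a1, Mc2r, Fdx1 and Hsd17b3. They were found by symbol among 53715 genes of 1 count table, and all 10 matched a row. The choice used values of these same libraries, in which Hsd3b6 was known to separate the labels, so levels and differences of the 10 genes are given as a description with no test.

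The table holds 4 RNA-seq libraries, 2 with the genotype label wild type (WT) and 2 labelled Rif1_KO, a knockout of the replication timing and break repair factor Rif1. All 4 come from C57BL/6 mouse embryos at E12.5 (embryonic day), and each was made by a modified Smart-seq2 method with Tn5 transposase from 1000 cells enriched on magnetic beads. The labels call these cells primordial germ cells, which later form eggs or sperm. The bead marker, the deleted part of Rif1, the use of a conditional or whole-body allele and the sex of the embryos are not given in the sources used here. No label says that replicates were separate embryos. Any p-value below sets the difference between the labels only against the spread of these libraries within a label, and that spread may be technical.

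The libraries hold between 11724630 and 14421298 counts each. Library values follow in the order WT replicate 1, WT replicate 2, Rif1_KO replicate 1 and Rif1_KO replicate 2. Levels are CPM, counts scaled to a common library total after TMM correction for differences in RNA composition. Levels of different genes are compared only as FPKM, that CPM per kilobase of exon. Rif1 itself had 474, 44, 1144 and 1207 counts, or 43.7, 4.73, 86.2 and 63.9 CPM. It was thus higher under the knockout label, which is not the direction that a loss of its RNA would give. As the deleted part is not given, this count cannot tell whether the labels hold. Every direction below is that of the labels. Germ cell markers summed to 56.7, 471, 37.1 and 37.9 CPM over 12 genes, so that WT replicate 2 stood well above the other libraries. Dazl, an RNA-binding protein of germ cells, had 13, 196, 2.03 and 4.08 CPM. Prdm14, a regulator of early germ cells, was instead near equal in both libraries labelled WT, with 19.9, 18.4, 0.452 and 0.106 CPM.

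In steroid-making cells, Star moves cholesterol into mitochondria, where Cyp11a1 cuts its side chain to give pregnenolone with electrons passed on by Fdx1. An enzyme of the 3-beta-hydroxysteroid dehydrogenase family (Hsd3b) then turns pregnenolone into progesterone. From there Cyp17a1 and Hsd17b3 lead to androgens in the testis, and Cyp21a1 and Cyp11b1 lead to corticosterone in the adrenal cortex, where Mc2r, the receptor for the pituitary hormone ACTH, drives the pathway. In the mouse embryo, fetal Leydig cells and the adrenal cortex are the known sites of this chain near the gonad. Hsd3b1 is the form known from these tissues, while Hsd3b6 is known from adult Leydig cells, the adrenal zona glomerulosa and trophoblast giant cells.

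Hsd3b6 (ENSMUSG00000027869.14, minus strand of chromosome 3, 98805504 to 98814443, mm10) and its paralogue Hsd3b1 (ENSMUSG00000027871.16, same strand, 98852194 to 98859794) are neighbours in a cluster of Hsd3b genes, with 37751 bases between them. Their coding sequences are 90% identical, with 112 of 1119 bases differing and a longest shared run of 72 bases. The first 120 coding bases of each are shown because the split of reads between this pair carries the main pattern, and the capitals mark the 20 bases at which the pair differs (83.3% identical, no gap). The bases were read from the GENCODE M21 coding transcripts, whose models of both genes have the same ends as in the table, and lie at chr3:98810927-98811046 for Hsd3b6 and chr3:98857845-98857964 for Hsd3b1, both on the minus strand of mm10.
Hsd3b6: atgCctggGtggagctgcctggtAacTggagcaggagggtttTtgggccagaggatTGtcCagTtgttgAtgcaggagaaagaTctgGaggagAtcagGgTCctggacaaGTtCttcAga
Hsd3b1: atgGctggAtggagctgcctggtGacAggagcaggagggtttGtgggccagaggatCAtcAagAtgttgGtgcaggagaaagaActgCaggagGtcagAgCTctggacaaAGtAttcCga

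A read that spans several of these differences can be placed on 1 of the genes, and a read from a shared run cannot. Of all stretches of 75 bases in the Hsd3b6 transcript, 7.93% also occur in another gene of the family (Hsd3b2 or Hsd3b3), and for stretches of 150 bases the share was 0.363%. For Hsd3b1 the share was 2.21% at 50 bases and 0% at 75 bases. The sources used here do not give the read length. Coding identity with Hsd3b6 was higher for Hsd3b3 (94.5%) and Hsd3b2 (94.4%) than for Hsd3b1, so the counts of Hsd3b2 and Hsd3b3 are the less certain ones.

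The 250 bases before the start of each gene are shown as well, since these neighbours parted between the libraries. They come from RefSeq (GRCm38.p6), at chr3:98814444-98814693 for Hsd3b6 and chr3:98859795-98860044 for Hsd3b1, both on the minus strand, and the capitals mark the letters AGATAA or their reverse complement TTATCT, one form of the site bound by GATA factors.
Hsd3b6 promoter: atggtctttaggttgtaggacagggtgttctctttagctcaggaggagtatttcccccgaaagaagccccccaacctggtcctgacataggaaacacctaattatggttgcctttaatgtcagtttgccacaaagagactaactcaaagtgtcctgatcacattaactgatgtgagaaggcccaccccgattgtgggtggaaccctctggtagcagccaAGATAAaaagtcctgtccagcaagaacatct
Hsd3b1 promoter: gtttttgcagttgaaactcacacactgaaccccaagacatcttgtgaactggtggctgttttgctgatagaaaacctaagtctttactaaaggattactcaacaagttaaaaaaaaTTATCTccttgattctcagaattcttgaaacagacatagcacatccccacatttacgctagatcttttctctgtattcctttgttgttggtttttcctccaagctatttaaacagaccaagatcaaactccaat

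The letters AGATAA stand 31 to 26 bases before the Hsd3b6 start in the direction of the gene, and 134 to 129 bases before the Hsd3b1 start in the reverse direction. Searched on both strands, they occur in 9.99% of 32851 RefSeq promoters of this length. TGATAA, another GATA form, was in 7.94% of promoters, and among the 5 genes with an entry (Hsd3b1, Hsd3b6, Cyp11a1, Fdx1 and Hsd17b3) in that of Fdx1. The nuclear receptor letters AGGTCA were in 14% and in that of Cyp11a1. The longer form CAAGGTCA, which contains AGGTCA and is a form of the site bound by Nr5a1, was in 1.33% of all promoters and in 0 of the 5. Star, Cyp17a1, Cyp11b1, Cyp21a1 and Mc2r had no entry in that table.

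Per length of transcript, Hsd3b6 was the most abundant of the 10 genes in both libraries labelled WT and was close to absent in both labelled Rif1_KO. Its counts were 3697, 1125, 7 and 46, which is 341, 121, 0.527 and 2.44 CPM. The groups did not overlap, and the lower library labelled WT was 49.6 times the higher one labelled Rif1_KO. On average the libraries labelled WT had 231 ± 155 CPM and the others 1.48 ± 1.35 CPM (SD, n = 2 per label), a ratio of 156, and the fitted log2 fold change was -7.25 (SE 0.99). Ranked by fitted fold change, Hsd3b6 stood at place 17 from the lowest of 15466 genes that passed the filter on low counts. With each library left out in turn its log2 fold change ranged from -8.71 to -6.27, and no scaling tried brought its groups to overlap. As its groups lay 49.6 times apart, no other outcome was open to these fits and scalings, so they are no further support.

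The pattern of Hsd3b1, the form known from fetal Leydig cells and the adrenal cortex, was a different one. It had 422, 0, 165 and 275 counts, or 38.9, 0, 12.4 and 14.6 CPM. The libraries labelled Rif1_KO lay close together, between the extremes of the libraries labelled WT, of which replicate 2 had no read (3 counts there would be 0.322 CPM). Its fitted log2 fold change of -0.53 (SE 2.11) turned to 10.56 without WT replicate 1 and was -1.52 without WT replicate 2. The difference between the labels in Hsd3b1 thus takes its sign from single libraries.

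**Figure D1:**
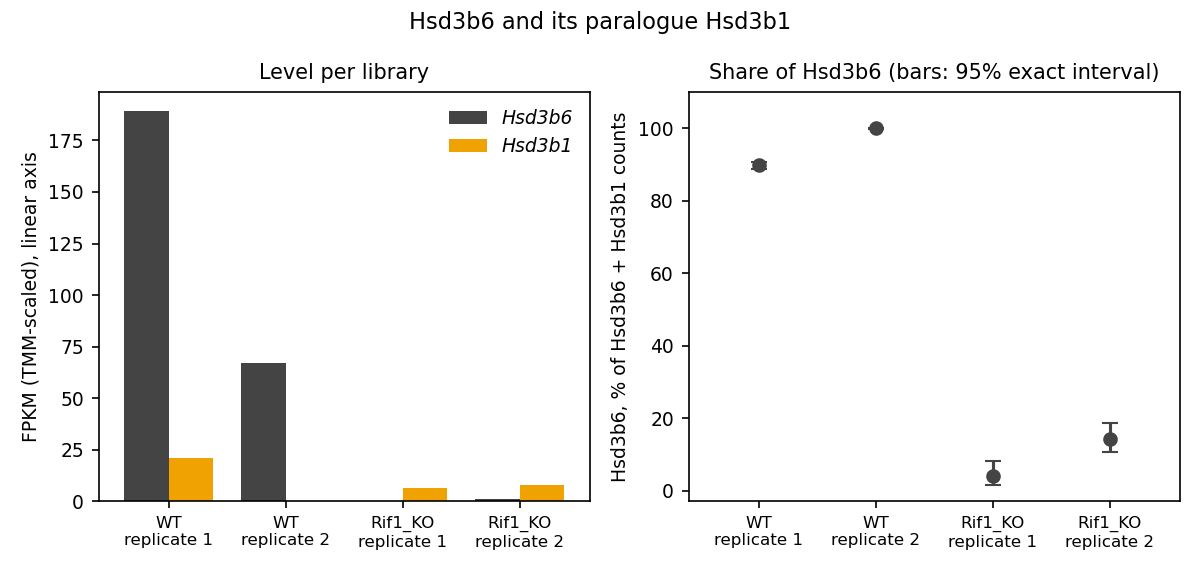
Left, the level of Hsd3b6 and Hsd3b1 in each library in FPKM on a linear axis from 0. Right, Hsd3b6 as a percentage of the summed counts of both genes, with 95% exact binomial intervals: 89.8% and 100% in the libraries labelled WT, 4.07% and 14.3% in those labelled Rif1_KO.

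Per length, Hsd3b6 reached 189 and 67.1 FPKM in the libraries labelled WT and 0.293 and 1.35 FPKM in those labelled Rif1_KO. Hsd3b1 had 21, 0, 6.7 and 7.85 FPKM, so the order of the pair was opposite under the labels, as the plot of both levels shows. Hsd3b6 made up 89.8% of the 4119 counts of the pair in WT replicate 1 (95% Clopper-Pearson interval 88.8 to 90.7) and all 1125 counts in WT replicate 2 (99.7 to 100). It made up 4.07% of 172 counts (1.65 to 8.21) in Rif1_KO replicate 1 and 14.3% of 321 counts (10.7 to 18.6) in Rif1_KO replicate 2. The intervals cover only the counting of reads, each taken as an independent draw, and not the spread between libraries. As the reads carry no molecular identifiers, amplified copies count as separate draws, so the intervals may be too narrow. This share does not depend on the scaling of the libraries. Since Hsd3b6 was chosen with these values known, the split of its share by label is a description and no further support. The summed level of both genes was also higher under the label WT, at 210.0 and 67.1 FPKM against 6.99 and 9.2 FPKM.

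The other genes of the family were low. Hsd3b2 and Hsd3b3, known from kidney and liver, had 29, 6, 1 and 1 counts and 99, 6, 5 and 2 counts, with most of these in WT replicate 1, the library with the most Hsd3b6. Hsd3b2 and Hsd3b3 were thus lower in both libraries labelled Rif1_KO, as Hsd3b6 was, though from few counts. Hsd3b4 and Hsd3b5 had at most 2 counts in a library. Hsd3b7, which acts in bile acid synthesis and lies outside the cluster, had 33.3, 43.6, 20.7 and 13.5 CPM. It too was lower in both libraries labelled Rif1_KO. Its counts are uncertain, because 99.2% of its exon bases also belong to other gene models and reads were counted for each gene they overlap. Family members Hsd3b8 and Hsd3b9 matched no row of the table by symbol.

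The Hsd3b cluster spans 98499071 to 98859794 of chromosome 3 and holds 18 gene models, 6 of them Hsd3b genes. Of the 12 others, Zfp697, a zinc finger gene on the opposite strand that runs across part of the span, had 116, 7, 14 and 120 counts. No other of these 12 models exceeded 8 counts in any library. Within the cluster Hsd3b6 and Hsd3b1 reached the highest counts, while Zfp697 reached 120 and Hsd3b3 reached 99. The genes on either side went opposite ways, as a description chosen by position: Phgdh, for the first enzyme of serine synthesis, had 863, 993, 117 and 365 counts, and Hao2, for a peroxisomal hydroxyacid oxidase, had 2, 2, 88 and 117 counts.

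Star, which delivers cholesterol to the mitochondrion, was higher in both libraries labelled Rif1_KO. It had 14, 4, 46 and 277 counts, or 1.29, 0.43, 3.47 and 14.7 CPM. The groups did not overlap under any of 5 scalings, but Rif1_KO replicate 2 was far above replicate 1, and the lower library labelled Rif1_KO was 2.69 times the higher one labelled WT. It averaged 0.86 ± 0.608 CPM under WT and 9.07 ± 7.92 CPM under Rif1_KO (SD, n = 2 per label), and the log2 fold change of 3.38 (SE 1.54) ranged from 2.03 to 4.41 with 1 library left out. Star lies on chromosome 8, 25806555 to 25815982.

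Cyp11a1, the side-chain cleavage enzyme that defines a steroid-making cell, was barely detected, with 3, 10, 3 and 6 counts. Those counts gave at most 0.224 FPKM in any library, against 189 FPKM for Hsd3b6 in WT replicate 1. Fdx1, the ferredoxin that passes electrons to mitochondrial cytochrome P450 enzymes in many tissues, was the only one of the 10 genes with 10 counts or more in all 4 libraries. It had 29.3, 21.9, 13.7 and 19.3 CPM. Its groups did not overlap with TMM factors, but they overlapped when scaled by the raw total or by upper-quartile factors, and its log2 fold change was -0.63 (SE 0.97).

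Cyp17a1, which makes androgen precursors, had 1, 4, 5 and 145 counts, so nearly all its reads came from Rif1_KO replicate 2, at 7.68 CPM. The other library labelled Rif1_KO had 0.377 CPM, within the range of 0.0921 to 0.43 CPM of the libraries labelled WT. When scaled by the raw total or by upper-quartile factors, Cyp17a1 was higher in both libraries labelled Rif1_KO, from the same 1, 4, 5 and 145 counts. Hsd17b3, the testicular enzyme of the last step to testosterone, had at most 3 counts in a library. The adrenal enzymes were as low: Cyp21a1 had 3, 7, 6 and 0 counts and Cyp11b1 had 4, 6, 1 and 4 counts. At such counts no difference between the labels was detectable at this depth. Parts of the exons of Cyp11a1 (3.02%), Cyp11b1 (9%) and Cyp21a1 (4.77%) also belong to other gene models, which leaves even these few reads uncertain.

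Mc2r, the ACTH receptor (chromosome 18, 68406907 to 68429251), showed the same kind of split as Hsd3b1. It had 226, 1, 111 and 88 counts, or 20.8, 0.107, 8.36 and 4.66 CPM. The libraries labelled WT stood at both extremes, with those labelled Rif1_KO between them. Its log2 fold change of -0.69 (SE 1.94) was 5.85 without WT replicate 1 and -1.67 without WT replicate 2. Hsd3b1 and Mc2r belong to 203 tested genes (1.31%) with at most 1 count in 1 library labelled WT and at least 100 in the other. In the pair labelled Rif1_KO there were 26 such genes (0.168%), none of them among the 10.

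**Figure D2:**
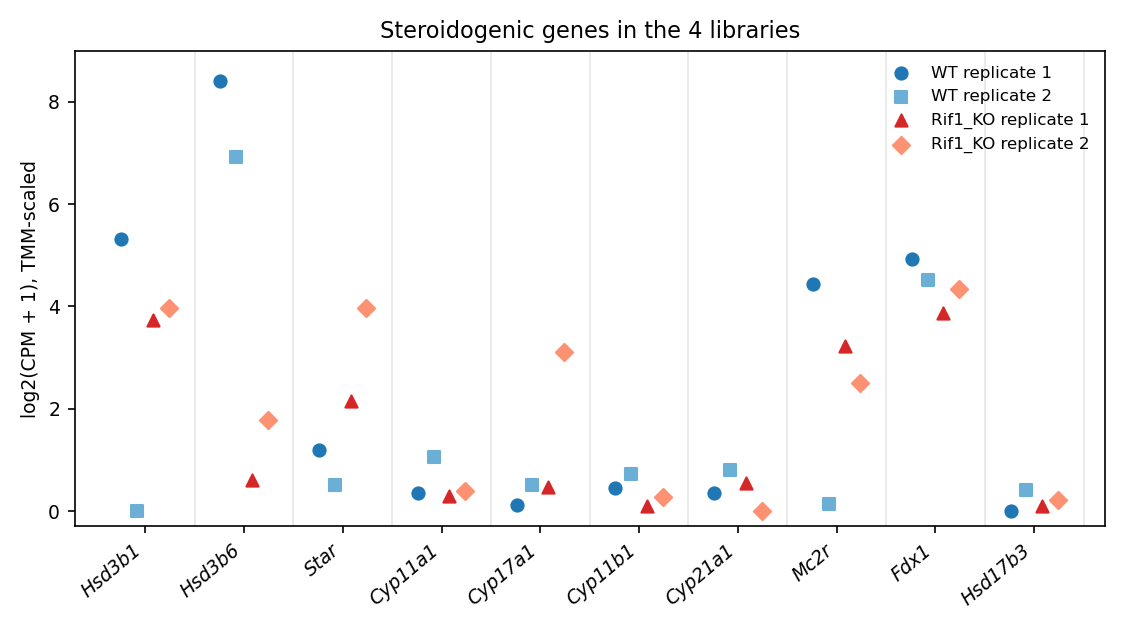
Levels of the 10 genes in the 4 libraries as log2(CPM + 1) with TMM scaling, 1 point per library. Hsd3b6 is the gene whose labels stand farthest apart, Star is higher in both libraries labelled Rif1_KO, and the points of Hsd3b1 and Mc2r for WT lie at opposite ends.

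In all, 1 of the 10 genes (Star) was higher and 3 (Hsd3b6, Fdx1 and Cyp11b1) were lower in both libraries labelled Rif1_KO than in both labelled WT, and 6 overlapped. Among all tested genes, 21.0% were higher and 18.4% lower without overlap. With the raw total or upper-quartile factors, 2 of the 10 (Star and Cyp17a1) were higher and 2 (Hsd3b6 and Cyp11b1) lower. Since the choice of the 10 genes used this contrast, nothing is read from their count. The highest library was WT replicate 1 for 4 genes, WT replicate 2 for 4 and Rif1_KO replicate 2 for 2. Only 5 of the 10 genes (Hsd3b1, Hsd3b6, Star, Mc2r and Fdx1) passed the filter on low counts, and 3 had fewer than 10 counts in every library. Hsd3b6 was high beside few counts of Cyp11a1 in the libraries labelled WT, and Star and Cyp17a1 were highest in a library with little Hsd3b6.

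**Figure D3:**
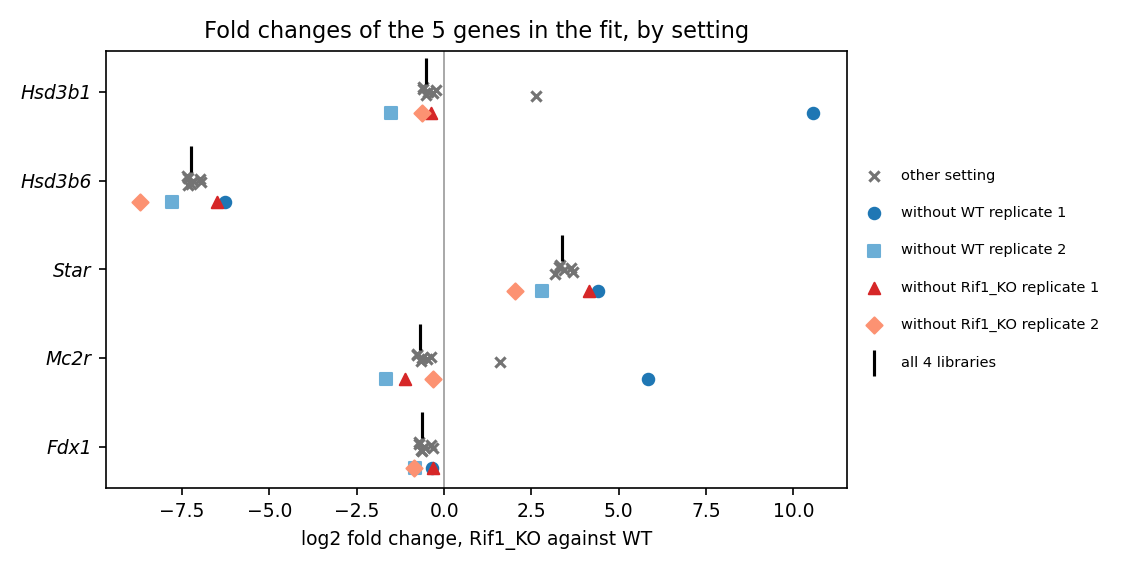
Log2 fold change, Rif1_KO against WT, of the 5 genes that passed the filter: the black bar is the fit on all 4 libraries, coloured points leave out 1 library each, and crosses are other tools, scalings, filters or the fit with a replicate block. Hsd3b6 stays between -8.71 and -6.27 and Star between 2.03 and 4.41, while Hsd3b1 and Mc2r cross 0 when WT replicate 1 is left out.

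Other genes of the pathway were taken from lists of 109 genes, of which 105 were in the table and 87 passed the filter. By edgeR's quasi-likelihood test with Benjamini-Hochberg adjustment over all 15466 genes, 0 of the 87 were called, against 0.0129% of all tested genes (2 adult alpha-globin genes, both lower under the label Rif1_KO). At an unadjusted p under 0.05 there were 3 higher and 1 lower of 87, against 8.41% of all tested genes (5.35% higher and 3.05% lower). DESeq2 called 2 of the 87, against 521 of all 15466 tested genes. With 1 library left out, edgeR called 7 of the list genes without WT replicate 1 and 9 without WT replicate 2, where it called 1345 and 890 genes in all, and 0 without either library labelled Rif1_KO, where it called 8 and 5 in all. Without overlap between the groups, 20 were higher and 16 lower, near the shares given above for all genes. The median log2 fold change was -0.10 over the 87 genes and -0.11 over all tested genes.

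Regulators of the pathway had more than 3 counts in every library. The list of steroidogenic transcription factors had 17 of 17 genes tested and a median log2 fold change of 0.20, with 1 higher at an unadjusted p under 0.05. That gene was Nr2f2, a nuclear receptor of interstitial cells, with 215, 162, 476 and 268 CPM (unadjusted p = 0.0398 by edgeR, adjusted p = 0.577). Tcf21, a repressor of Nr5a1 in gonadal mesenchyme, had 0.553, 4.73, 24.4 and 33.5 CPM (edgeR adjusted p = 0.594). Nr2f2 and Tcf21 are also on the list of 12 stromal markers, whose summed level was 575, 405, 1642 and 1363 CPM, higher under the label Rif1_KO, and the part of these cells in the values of both genes was not tested. Nr5a1, the main activator of steroidogenic genes in gonad and adrenal, had 60.1, 7.52, 24.7 and 22.2 CPM. As for Hsd3b1 and Mc2r, its libraries labelled WT lay at both extremes. Nr0b1, which represses Nr5a1 targets, had 0.829, 6.02, 9.49 and 22.8 CPM without overlap.

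Among hormone receptors and cAMP signalling genes, 14 of 19 were tested, with a median log2 fold change of -0.09. The 1 gene higher at an unadjusted p under 0.05 was Pde8a, a phosphodiesterase that degrades cAMP in steroid-making cells. It had 0.829, 0.752, 5.2 and 23.9 CPM (edgeR unadjusted p = 0.0331, adjusted p = 0.577) and was among the 521 genes called by DESeq2. Its relative Pde8b had 11.8, 65.1, 3.47 and 12.2 CPM, with overlap. Lhcgr, the receptor for luteinizing hormone, had 2.86, 22.3, 1.81 and 6.2 CPM and was highest in WT replicate 2. Mrap, which Mc2r needs to reach the cell surface, had 6, 3, 7 and 39 counts, and the Leydig cell hormone Insl3 had 0, 0, 1 and 16 counts. The last pair of genes had most of their counts in Rif1_KO replicate 2, the library that also led for Star and Cyp17a1.

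All 18 genes of cholesterol uptake, storage and transport were tested, none with an unadjusted p under 0.05, and the median log2 fold change was -0.61. Tspo, an outer mitochondrial membrane protein, had 123, 52.8, 16 and 38.1 CPM (edgeR adjusted p = 0.601), and Npc2, which carries cholesterol out of lysosomes, had 266, 330.3, 181 and 193 CPM (0.626). Both were lower in each library labelled Rif1_KO without passing the test. Scarb1, the receptor for high-density lipoprotein, had 6.63, 2.15, 12.3 and 13.6 CPM, higher in each library labelled Rif1_KO (edgeR adjusted p = 0.81). The 22 genes of cholesterol synthesis had a median of 0.10. Ebp, a sterol isomerase late in that chain, had 3, 2, 84 and 449 counts, which is 0.276, 0.215, 6.33 and 23.8 CPM (edgeR unadjusted p = 0.0107, adjusted p = 0.571). Ebp was among the 521 genes called by DESeq2. Mvk, the mevalonate kinase, had 1.11, 0.537, 8.21 and 6.57 CPM (edgeR adjusted p = 0.601).

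Electron transfer partners of the steroid enzymes were all expressed, with 7 of 7 tested and a median log2 fold change of -0.35. Cyb5r3, a cytochrome b5 reductase, was the 1 gene lower at an unadjusted p under 0.05, with 97.9, 38.5, 18.9 and 21 CPM (edgeR unadjusted p = 0.0488, adjusted p = 0.589). Por, the reductase that serves Cyp17a1 and Cyp21a1, had 13.4, 50, 5.88 and 5.35 CPM (edgeR adjusted p = 0.629). Fdxr, which loads Fdx1 with electrons, had 24.9, 1.83, 5.73 and 4.66 CPM. Cyb5a, a cofactor of Cyp17a1 that is used in many cell types, was the steadiest of the named ones, at 379, 511, 390.1 and 339 CPM.

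Of the other steroid-converting enzymes, 8 of 17 were tested, with 0 at an unadjusted p under 0.05 in either direction and a median log2 fold change of -0.22. Hsd17b7, which acts on oestrone and in cholesterol synthesis, had 2.49, 1.18, 12.4 and 3.07 CPM. Hsd11b2, which inactivates corticosterone, had 0.737, 29, 2.34 and 3.5 CPM, with WT replicate 2 far above the rest. Cyp19a1, the aromatase, had 3, 6, 4 and 5 counts. Hsd17b1, which makes oestradiol in granulosa cells, had 123, 0, 2 and 6 counts, nearly all of them in WT replicate 1.

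**Figure D4:**
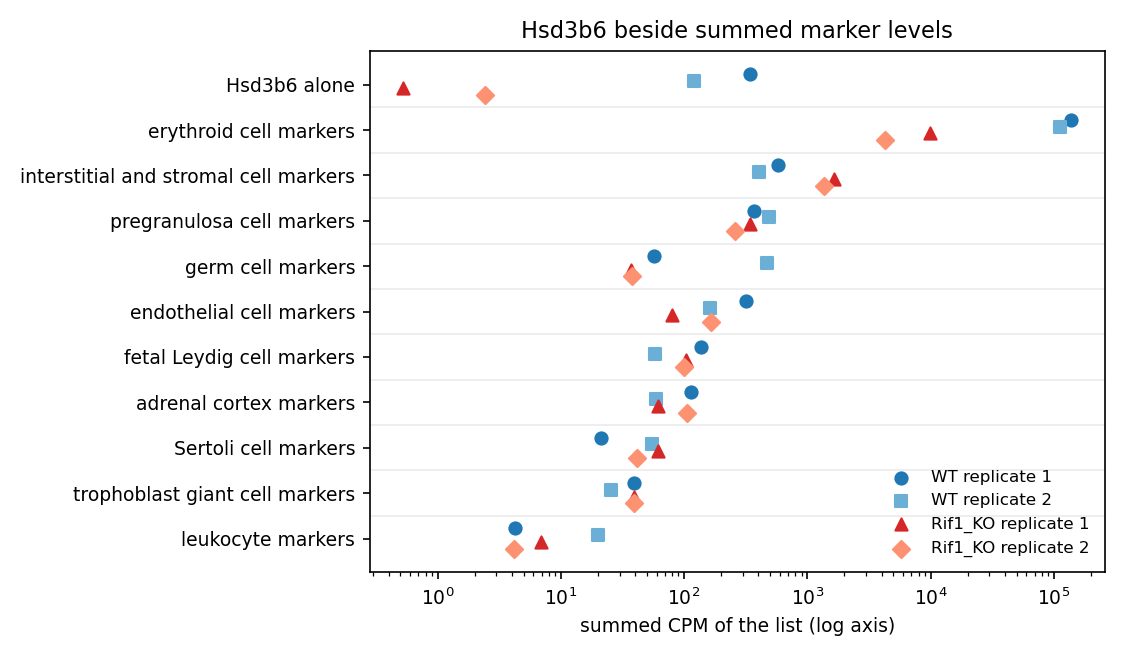
Summed CPM of marker lists by library on a log axis, with Hsd3b6 alone in the top row. Erythroid markers were higher and stromal markers lower in both libraries labelled WT, while the lists for fetal Leydig cells and adrenal cortex do not separate the labels.

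Marker levels were also summed for the cells known to make steroids and for supporting cells of the gonad. The 11 fetal Leydig cell markers summed to 137, 58, 103 and 99 CPM and the 11 adrenal cortex markers to 113, 59.3, 61.7 and 105 CPM, with overlap between the labels in both lists. These lists include 7 of the 10 genes themselves and are no independent measure. Trophoblast giant cell markers summed to 38.9, 25.7, 39 and 39.3 CPM over 13 genes, nearly all of it Plac1. The placental lactogen gene Prl3d1, which defines giant cells, had 0, 0, 2 and 0 counts. Sertoli cell markers summed to 21.2, 54.5, 61.9 and 41.6 CPM, with Amh at 6 counts or fewer and Sox9 at 7.74, 18.9, 29.8 and 31.8 CPM, while Sry was at 0 in all 4 libraries. Pregranulosa markers summed to 368, 491, 345 and 259 CPM, with Foxl2 at 15.2, 1.93, 10.9 and 5.61 CPM.

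Markers of red blood cells were far higher in both libraries labelled WT. Summed levels of germ cell, mesonephric epithelium and pregranulosa markers were also higher in both, by smaller margins. For pregranulosa markers the nearest sums were 368 CPM under WT and 345 CPM under Rif1_KO. Of their 7 tested genes, 1 was lower under Rif1_KO without overlap, against 18.4% of all tested genes. The 11 erythroid markers summed to 138697, 113023, 9886 and 4266 CPM, all 11 were lower in both libraries labelled Rif1_KO, and their median log2 fold change was -4.05. Their defining genes were present in all libraries except Klf1 in Rif1_KO replicate 2, which had 0 counts. The summed germ cell level given above was lower in both libraries labelled Rif1_KO. Of the 9 tested germ cell markers, 4 were lower and 1 higher at an unadjusted p under 0.05 (edgeR), none was called after adjustment, and the median log2 fold change was -1.49. Of these 9, 2 (Dazl and Prdm14) were lower without overlap, against 18.4% of all tested genes. Prdm1, on the same list, was higher without overlap, with 0.276, 0.322, 0.904 and 17.7 CPM, most of it in Rif1_KO replicate 2. Endothelial markers summed to 315, 162, 80.4 and 165 CPM, mesonephric epithelium markers to 171, 257, 68 and 142 CPM, and leukocyte markers to 4.24, 20, 6.93 and 4.13 CPM. The part of any of these cell types in the level of Hsd3b6 was not tested, and in such mixed samples fewer cells of a type and less RNA per cell cannot be told apart.

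The genes whose values over the 4 libraries were most like those of Hsd3b6 were sought among 12286 genes with a mean of at least 1 CPM, by the distance between mean-centred log2(CPM + 1) values. The nearest was Epx, the eosinophil peroxidase, with 78.9, 48.4, 0.452 and 0.159 CPM and a distance of 1.49. Sult1a1, a phenol sulphotransferase, had 37.6, 30.7, 0.226 and 0 CPM, and the kinase gene Dyrk3 had 36, 27.6, 0.226 and 0.053 CPM. Kel, for a blood group protein, had 54.3, 21.2, 0.603 and 0.106 CPM. Sult1a1 lay at a distance of 2.01, Dyrk3 at 2.07 and Kel at 2.14, and no gene lay within a distance of 1. None of these 4 is one of the 10 steroidogenic genes or of the pathway lists.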

How the data were processed

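Counts per gene were deposited as 1 table with a column per library, and all 4 columns were used. Tools named in the submitters' processing notes are featureCounts, HISAT2, SAMtools, FastQC and Trim Galore, with build mm10. Counting was done per read pair with featureCounts 1.6.2 on GENCODE M17, per the file headers, with a mapping quality of at least 30, without a strand option, and for every gene they overlapped. Counts of overlapping, antisense and closely related genes are therefore uncertain.

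Symbols were looked up by Ensembl identifier, and 95 of 53715 identifiers had none. The filter was edgeR's filterByExpr by group (minimum count 10). All 4 libraries were fitted with the quasi-likelihood test of edgeR 4.0.16 in R 4.3.3 (TMM, no covariate), with Benjamini-Hochberg adjustment over the 15466 tested genes at 0.05. SE is the absolute log2 fold change over the root of F. A fold change in single genes is to be read against the median of all tested genes (-0.11). The steps were tested on simulated counts, where few of the changed genes were called, so a gene not called here may still differ.

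The 10 genes, the pathway and marker lists, and the rule for named genes (fixed names, the Hsd3b family, up to 4 called or else the 2 genes of smallest p per list, and the 5 genes most like Hsd3b6) were chosen with earlier results of these data known. Of the genes this rule takes, 2 are not reported here. Alternatives were DESeq2 1.42.0, other scalings and filters, a replicate block, and leaving out each library.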

Additional observations from a re-analysis of the deposited data

How the results depend on the processing

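Over all genes, edgeR called 2 with TMM, 2 with RLE factors and 2 with scaling factors that leave out haemoglobin, rRNA-region and mitochondrial genes. DESeq2 called 521 (329 higher, 192 lower under the label Rif1_KO), upper-quartile factors gave 0, no filter on low counts 54, a minimum count of 50 gave 0, and leaving out 1 library gave 5 to 1345. Of the 87 tested pathway genes, DESeq2 called 2 (Pde8a and Ebp), leaving out 1 library gave 0 to 9, and the other settings gave 0. The lone library of such fits is taken to vary like the other label, and the cause of these changes was not tested. Over all tested genes the median log2 fold change moved to -0.19 with RLE factors, to 0.16 with upper-quartile factors, to 0.08 with the replicate block, and to between -0.18 and 0.32 with 1 library left out (0.32 without WT replicate 1, 0.29 without WT replicate 2).

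Hsd3b6 kept its sign in 11 of 11 alternatives (-8.71 to -6.27) and Fdx1 in 11 of 11 (-0.85 to -0.33). Star kept its sign in 10 of 10 (2.03 to 4.41) and was not tested with a minimum count of 50. As the groups of Hsd3b6 and Star did not overlap, leaving out 1 library could hardly turn their sign. Their kept signs are therefore no further support. Hsd3b1 and Mc2r changed sign in 2 of 11 each, without WT replicate 1 (10.56 and 5.85) and with the replicate block (2.62 and 1.61).

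Same-numbered libraries did not deviate together (r = -0.0252 across genes), and no label says that they share more than the number. From 4 libraries this value cannot decide whether they share an origin. With the replicate block edgeR called 7 genes in all and 0 pathway genes. With few counts for Cyp11a1, Cyp11b1, Cyp21a1 and Hsd17b3, depth limits what can be said of them.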

Other observations

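Some genes of adrenal cortex and steroid conversion, chosen after their values were seen, had the same uneven spread over the libraries as Cyp17a1. Akr1b7, an aldo-keto reductase of the adrenal cortex, had 2, 6, 2 and 103 counts, and Agtr1b, an angiotensin receptor of the adrenal gland, had 0, 1, 1 and 93 counts. As with Cyp17a1, 3 of the libraries were near 0 and Rif1_KO replicate 2 stood alone.

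Other genes differed as widely within the pair labelled WT as Hsd3b1 and Mc2r did, also chosen after their values were seen. Hsd17b12, a reductase of fatty acid elongation, had 1, 1297, 909 and 933 counts, and the angiotensin receptor gene Agtr1a had 4, 835, 63 and 174 counts. Srd5a1, a steroid 5-alpha-reductase, went the other way, with 361, 2, 85 and 76 counts. In Hsd17b12 the low library was WT replicate 1, and in Srd5a1 it was WT replicate 2.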
